A study of Mus musculus with 8 samples.

Results

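Desmosomes are the spot junctions that couple the keratin filaments of neighbouring keratinocytes. The genes described here are 10 of the 19457 in a table of RNA sequencing coverage, picked by symbol: the desmogleins Dsg2 and Dsg3, the desmocollins Dsc2 and Dsc3, plakoglobin (Jup), the plakophilins Pkp1, Pkp2 and Pkp3, desmoplakin (Dsp) and the tetraspan membrane protein gene Perp. They were measured in keratinocytes, the cells that build the epidermis, in primary culture from 4 samples of HOIL1 ΔRING1 (HdR) mice and 4 of wild-type (WT) mice and harvested before confluence. HdR cells carry a HOIL-1L protein without its first RING domain; HOIL-1L belongs to the complex that assembles linear ubiquitin chains. Strain, age and sex of the animals, culture calcium, and whether the 4 libraries per genotype derive from different animals or dishes are not given in the sources used here, so the p-values measure only the spread between these libraries, which may be technical.

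In a desmosome, desmogleins and desmocollins, both calcium-dependent cadherins, bind across the gap between cells. Inside the cell, plakoglobin and the plakophilins, all armadillo-repeat proteins, attach the cadherin tails to desmoplakin, and desmoplakin binds keratin filaments. Stratified epidermis is known for a graded cadherin set, with Dsg3 and Dsc3 strongest in the lower layers and the Dsg1 genes and Dsc1 in the upper layers, while Dsg2 and Pkp2 are the forms of simple epithelia and heart. Perp is a p53 and p63 target that mouse epidermis needs for normal desmosomes.

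Of the 10 genes, RefSeq's promoter table (GRCm38.p6) held 2, plakoglobin and desmoplakin, the partners whose ratio is tested below. Each line gives the 250 bases before the RefSeq transcript start, 5′ to 3′ on the gene's strand, chr11:100397791-100398040 (minus) for Jup and chr13:38151044-38151293 (plus) for Dsp. Capitals mark matches, on either strand, to the GC box GGGCGG and to CCAAT.
Jup: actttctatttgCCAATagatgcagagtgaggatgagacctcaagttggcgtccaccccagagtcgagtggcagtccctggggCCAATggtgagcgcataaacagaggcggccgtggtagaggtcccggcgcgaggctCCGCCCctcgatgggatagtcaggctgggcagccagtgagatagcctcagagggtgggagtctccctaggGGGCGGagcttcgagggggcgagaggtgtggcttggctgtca
Dsp: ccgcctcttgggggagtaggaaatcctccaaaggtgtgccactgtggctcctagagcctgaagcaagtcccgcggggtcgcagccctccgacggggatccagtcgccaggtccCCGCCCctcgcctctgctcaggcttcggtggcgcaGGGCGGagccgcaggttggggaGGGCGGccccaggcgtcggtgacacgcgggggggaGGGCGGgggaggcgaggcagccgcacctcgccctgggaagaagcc
The Jup window held a GC box on each strand and a pair of CCAAT matches on its own strand, the nearest GC box ending 37 bases before the RefSeq start. That start lies upstream of the GENCODE start of Jup given below, and no GENCODE transcript of Jup starts there. The Dsp window held 4 GC boxes, 3 of them on its own strand, and no CCAAT. The motif searches found no match in either window to the AP-1 motif TGACTCA, the E-box CAGGTG, the TATA box motif TATAAA or the Grainyhead motif AACCGGTT. Of all 32851 promoter windows of this length, 32.7% held a GC box and 33.8% a CCAAT, against 4.46% for AP-1, 17.2% for the E-box, 12.4% for the TATA box motif and 0.116% for Grainyhead. A match is only a description of these letters.

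The HdR libraries held 2.31 to 4.31 Gb of aligned bases and the WT libraries 4.78 to 5.43 Gb, with no overlap between genotypes. Values below are coverage: aligned bases over a gene per megabase of the library's scaled total (per Mb). Rbck1, which encodes HOIL-1L, averaged 43.7 ± 1.87 per Mb in HdR and 87.5 ± 3.4 in WT libraries (SD, n = 4 each), lower in every HdR library. Of 7 keratinocyte markers all passed the filter of a mean of at least 1 per Mb, with Krt5 at 18576 ± 311 per Mb in HdR and 17291 ± 851 in WT. Coverage in bulk RNA cannot tell fewer cells of a type from less RNA per cell.

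The 10 genes lie in 7 places. Dsp is on GRCm38 chromosome 13 (38151294 to 38198577, plus strand), Jup on chromosome 11 (100368958 to 100397763, minus), Pkp1 on chromosome 1 (135871395 to 135919207, minus) and Pkp2 on chromosome 16 (16213318 to 16272712, plus). Pkp3 is on chromosome 7 (141078218 to 141090510, plus) and Perp on chromosome 10 (18845020 to 18857073, plus). The 4 cadherin genes share 1 cluster on chromosome 18, with Dsc3 (19960930 to 20002351) and Dsc2 (20030633 to 20059554) on the minus strand and Dsg3 (20510274 to 20547459) and Dsg2 (20558074 to 20604521) on the plus strand. In the longest coding transcript of each gene in GENCODE vM21, 8 of the 10 shared no stretch of 151 bases, the apparent read length, with the transcripts of another gene. Dsg2 shared 3.24% of such stretches with the antisense gene Gm16090 and Dsp 3.7% with Gm10129, and the labels do not state a strand setting.

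Jup, Pkp1, Perp and Dsc2 were lower in HdR keratinocytes, and the other 6 genes did not pass the test. In mean coverage Jup fell by 16.7%, Dsc2 fell by 17.6%, Perp fell by 20.8% and Pkp1 fell by 21.3%. All 10 genes passed the filter on low values. By limma with Benjamini-Hochberg adjustment over 11870 genes, 4 were lower, 0 higher and 6 not called at adjusted p under 0.05. At an unadjusted p under 0.05, 6 were lower and 1, Pkp2, was higher. By limma-voom 5 were lower and 0 higher. Across all tested genes 45% were called, 23.8% lower and 21.2% higher, so a call by itself was common in this comparison. The median log2 fold change of the 10 was -0.14, against -0.01 over all genes tested. Summed over the 10 genes, coverage was 1.72% to 1.76% of all aligned bases in an HdR library and 1.85% to 2.02% in a WT library. Without WT 3, 7 genes were called lower, the additional ones being Dsg2, Dsc3 and Dsp. Tested against a 1.2-fold change with limma's treat, 0 of the 10 were called, where 7.47% of all genes were, so none of these differences was shown to exceed that fold.

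**Figure D1:**
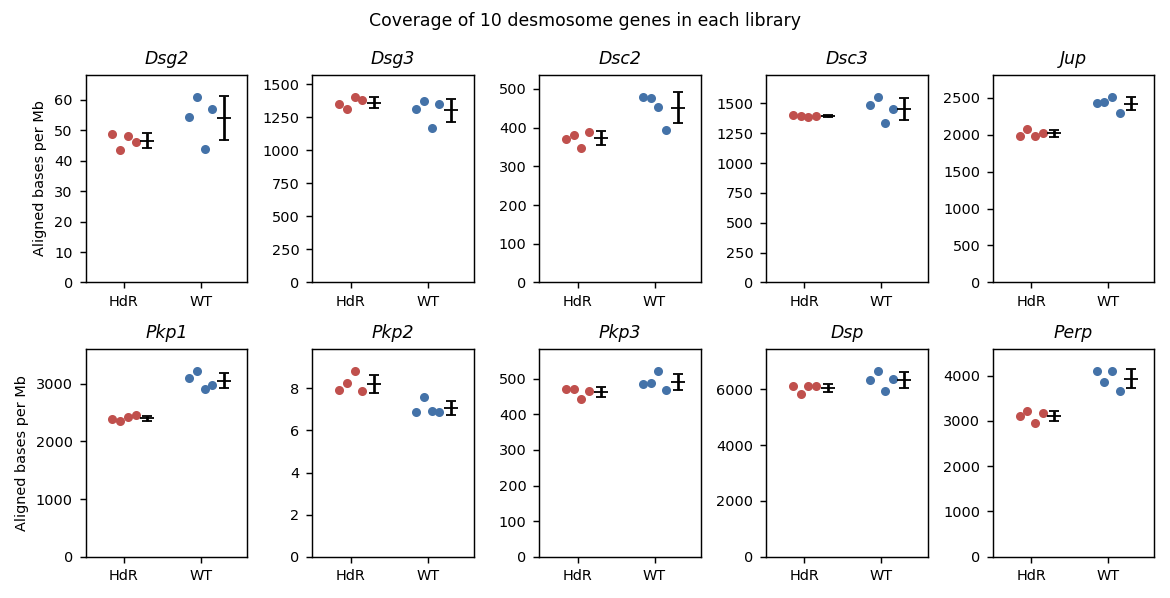
Coverage of each gene (aligned bases per Mb, linear axis from 0) in the 4 HdR and 4 WT libraries (points), with mean and SD (bars). Jup, Pkp1, Perp and Dsc2 lie lower in all HdR libraries, Pkp2 lies higher in all of them, and the other 5 overlap.

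Among the cadherins, Dsc2 fell and the rest were not called. Dsc2 had 370, 381, 348 and 389 per Mb in HdR 1 to 4, against 480, 478, 454 and 395 in WT 1 to 4. The groups did not overlap, but WT 4 lay just above HdR 4. The log2 fold change was -0.28 ± 0.058 (SE, 95% interval -0.40 to -0.15, limma adjusted p = 0.00208). Dsc3, the other desmocollin among the 10, had 1400, 1393, 1386 and 1391 per Mb in HdR libraries and 1483, 1555, 1335 and 1449 in WT libraries. The WT values spanned the HdR ones, with a log2 fold change of -0.06 (95% interval -0.15 to 0.02, limma adjusted p = 0.222).

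Dsg3, the main desmoglein of basal keratinocytes and the pemphigus vulgaris antigen, had 1350, 1314, 1406 and 1381 per Mb in HdR libraries and 1316, 1370, 1173 and 1350 in WT libraries. The groups overlapped, and WT 3 was the lowest of all 8. The log2 fold change was 0.07 (95% interval -0.03 to 0.16, limma adjusted p = 0.226), and 0.02 without WT 3 (limma adjusted p = 0.693). Dsg2 had 48.7, 43.4, 48.2 and 46.3 per Mb in HdR libraries and 54.3, 61, 44 and 56.9 in WT libraries. WT 3 was the WT library that reached down into the HdR range. The log2 fold change was -0.20 (95% interval -0.38 to -0.01, unadjusted p = 0.037 and limma adjusted p = 0.075), and without WT 3 it was -0.29 (limma adjusted p = 0.000225).

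Among the genes of armadillo proteins, Jup and Pkp1 fell, and Pkp2 and Pkp3 were not called. Plakoglobin, which also serves in adherens junctions, had 1983, 2069, 1981 and 2028 per Mb in HdR libraries and 2431, 2434, 2510 and 2296 in WT libraries for Jup. Every HdR library was below every WT library, with a log2 fold change of -0.26 ± 0.034 (SE, 95% interval -0.33 to -0.19, limma adjusted p = 1e-05). Pkp1, the plakophilin of suprabasal epidermis whose loss in people causes skin fragility, had 2385, 2356, 2421 and 2454 per Mb in HdR libraries and 3106, 3220, 2914 and 2985 in WT libraries. The groups were far apart relative to their spread, with a log2 fold change of -0.35 ± 0.035 (SE, 95% interval -0.42 to -0.27, limma adjusted p = 6.85e-07).

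Pkp3, a plakophilin of all epidermal layers, had 470, 472, 443 and 465 per Mb in HdR libraries and 485, 488, 521 and 468 in WT libraries. The groups overlapped through WT 4, and the log2 fold change was -0.08 (95% interval -0.16 to -0.01, unadjusted p = 0.0378 and limma adjusted p = 0.0764). Pkp2 was at 7.9, 8.24, 8.82 and 7.88 per Mb in HdR libraries and 6.87, 7.57, 6.91 and 6.9 in WT libraries. All HdR values were above all WT values, and the log2 fold change was 0.19 (95% interval 0.02 to 0.37). This gene missed the threshold (unadjusted p = 0.0342 and limma adjusted p = 0.0704) and passed it under upper-quartile scaling, with library totals as the scale, and after thinning every library to the smallest.

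Desmoplakin, the link to keratin, was not called, and Perp fell. Dsp had 6111, 5845, 6105 and 6109 per Mb in HdR libraries and 6341, 6650, 5936 and 6385 in WT libraries. Only WT 3 fell within the HdR range, and the log2 fold change was -0.07 (95% interval -0.14 to 0.01, unadjusted p = 0.0869 and limma adjusted p = 0.151). Perp had 3112, 3213, 2955 and 3167 per Mb in HdR libraries and 4097, 3866, 4097 and 3654 in WT libraries. The groups did not overlap, with a log2 fold change of -0.34 ± 0.040 (SE, 95% interval -0.42 to -0.25, limma adjusted p = 4.13e-06). Across the 10 genes, 4 had HdR libraries all below WT and 1 all above, where 21.3% and 19.8% of all tested genes did.

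**Figure D2:**
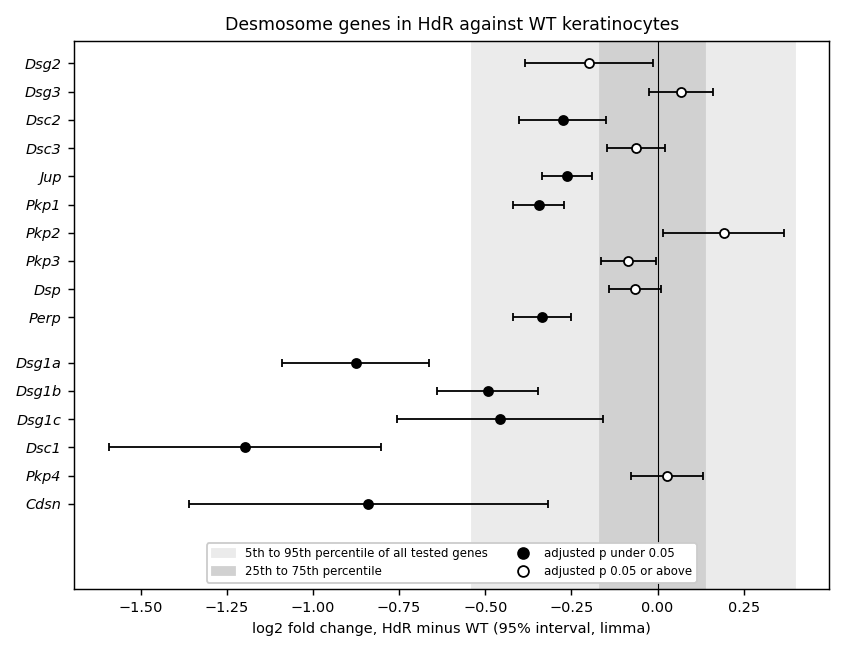
log2 fold change, HdR minus WT, with 95% limma intervals for the 10 genes (upper block) and 6 further desmosome genes (lower block); filled points passed adjusted p under 0.05, and shading gives percentiles of all 11870 tested genes. The called members lie between -0.35 and -0.26, inside the 5th to 95th percentile range of -0.54 to 0.40, while Dsc1, Dsg1a and Cdsn lie below it.

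Levels of different genes were set side by side per kilobase of exon (per Mb per kb), and the order of the 10 was the same in both genotypes. From the highest it was Perp (1594 ± 57.5 in HdR and 2013 ± 109 in WT), Dsp (626 ± 13.7 in HdR and 655 ± 30.5 in WT), Pkp1 (479 ± 8.48 in HdR and 608 ± 26.8 in WT) and Jup (313 ± 6.5 in HdR and 376 ± 13.9 in WT; SD, n = 4 each throughout). Dsc3 (258 in HdR and 269 in WT), Dsg3 (195 in HdR and 187 in WT) and Pkp3 (128 in HdR and 136 in WT) followed. Dsc2 was at 70.5 in HdR and 85.6 in WT, and Dsg2 and Pkp2 were far lower, at 5.64 and 1.53 in HdR against 6.53 and 1.32 in WT. Dsp and Pkp1 were apart in HdR, at 605 to 633 against 469 to 489 per Mb per kb, but their ranges overlapped in WT, at 615 to 688 against 580 to 641. Per kilobase of the longest coding transcript in place of all exons, Jup came level with Dsp in HdR (629 and 630) and above it in WT (754 and 660), so the order of Dsp, Pkp1 and Jup depends on the length used.

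**Figure D3:**
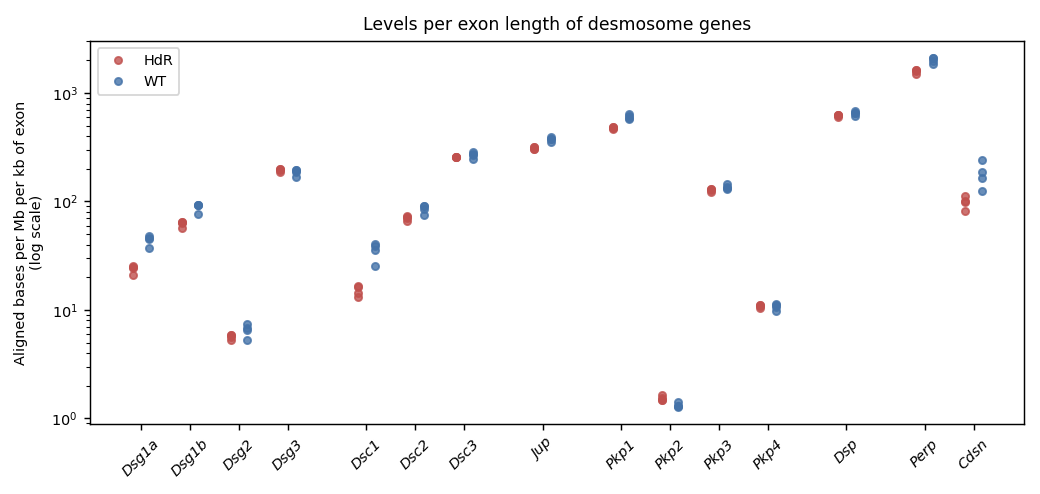
Coverage per kilobase of exon (log axis) in each HdR and WT library for the desmosome genes, grouped as desmogleins, desmocollins, plakoglobin, plakophilins, desmoplakin, and Perp with Cdsn. The plakophilins run from Pkp1 (479 in HdR, 608 in WT) to Pkp2 (1.53 in HdR, 1.32 in WT).

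Ratios within a library do not depend on library scaling, and 4 of the 5 pairs tested shifted between genotypes. How often other gene pairs shift was not computed, and 45% of all tested genes were called. The count therefore cannot be read as particular to desmosome genes. The plakophilin pairs share Pkp1, itself called lower, so they are not separate results. Per exon length, Pkp3 amounted to 0.274, 0.278, 0.254 and 0.263 of Pkp1 in HdR libraries and 0.217, 0.211, 0.248 and 0.218 in WT libraries. The groups did not overlap, and the log2 ratio was 0.26 higher in HdR (exact permutation test over 70 regroupings, two-sided p = 0.0286, the smallest they allow, and 0.0357 adjusted over 5 pairs). The ratio of Pkp2 to Pkp1 was 0.0031, 0.00328, 0.00341 and 0.00301 in HdR and 0.00207, 0.0022, 0.00222 and 0.00217 in WT, a log2 difference of 0.56 with the same exact p. Pkp1 was thus lower relative to both other plakophilins in all HdR libraries and remained the most abundant of the 3.

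Plakoglobin fell relative to desmoplakin. The ratio of Jup to Dsp was 0.487, 0.531, 0.487 and 0.498 in HdR libraries and 0.575, 0.549, 0.635 and 0.54 in WT libraries, a log2 difference of -0.20 with the groups apart (exact permutation p = 0.0286, 0.0357 adjusted over 5 pairs). The ratio of Dsg2 to Dsg3 was 0.0305, 0.0279, 0.0289 and 0.0283 in HdR libraries and 0.0348, 0.0376, 0.0316 and 0.0355 in WT libraries, a log2 difference of -0.27 with the same exact p. For Dsc2 to Dsc3 it was 0.271, 0.28, 0.257 and 0.287 in HdR and 0.331, 0.315, 0.348 and 0.279 in WT. WT 4 fell inside the HdR range, and the log2 difference of -0.21 missed the threshold (exact permutation p = 0.0857, also when adjusted) but passed without WT 4 (-0.28, adjusted exact permutation p = 0.0286). The 4 calls were each lost when any HdR library was left out, at an adjusted exact permutation p of 0.0714. That of Jup to Dsp was also lost without WT 1 or WT 3. Fewer regroupings are possible with a library left out, but an adjusted exact permutation p of 0.0286 can still be reached, as without WT 4. The number of regroupings alone therefore does not account for the lost calls. The differences kept their direction with the groups still apart.

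**Figure D4:**
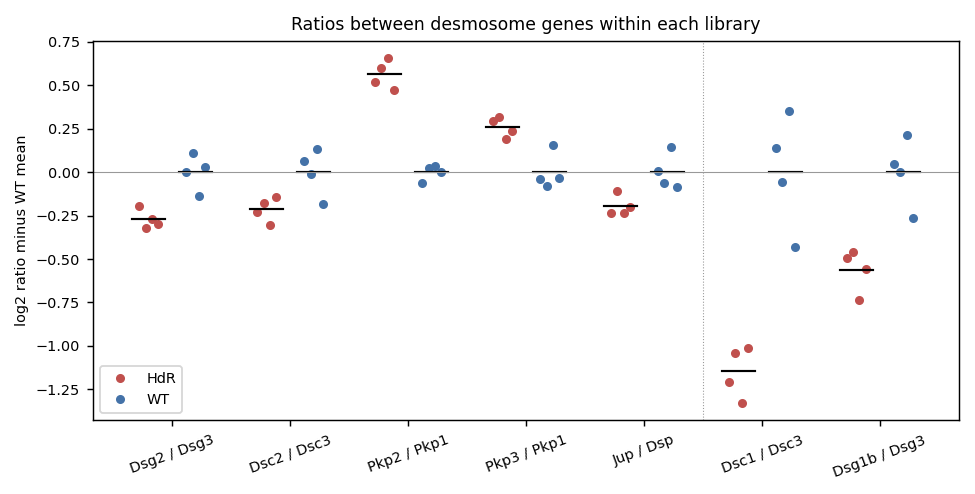
log2 ratio of paired desmosome genes within each library, per exon length, minus the WT mean of that ratio (points, libraries; lines, means). Left of the dotted line are the 5 tested pairs, where Pkp2 to Pkp1 is the furthest apart at 0.56; right of it are 2 ratios given as a description.

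Of the remaining desmosome genes, those of the upper epidermis fell, with log2 fold changes below those of all 10 members. Of 7 listed, 6 passed the filter, 5 were lower, none was higher and 1 was not called; their median log2 fold change was -0.67. Dsc1 had 72.9, 81.5, 66.3 and 83 per Mb in HdR libraries and 196, 179, 205 and 129 in WT libraries (log2 fold change -1.20, 95% interval -1.59 to -0.80, limma adjusted p = 0.00127). All HdR libraries were below WT 4, the lowest WT library. Per exon length Dsc1 amounted to 0.0512 to 0.0639 of Dsc3 in HdR and 0.0954 to 0.165 in WT. Dsg1b, a desmoglein 1 gene, amounted to 0.285 to 0.345 of Dsg3 in HdR and 0.396 to 0.552 in WT.

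Dsg1a had 140, 143, 119 and 141 per Mb in HdR libraries and 271, 263, 258 and 210 in WT libraries (log2 fold change -0.88, 95% interval -1.09 to -0.66, limma adjusted p = 0.000118). Dsg1b had 259, 257, 227 and 253 in HdR and 366, 370, 368 and 304 in WT (log2 fold change -0.49, 95% interval -0.64 to -0.35, limma adjusted p = 0.000122). The desmoglein 1 genes are close copies: 16% of the 151-base stretches of Dsg1a and 23.1% of those of Dsg1b also occur in the other, so reads could be shared and their separate values are uncertain. Dsg1c was near the filter, at 1.81 to 3.28 per Mb in HdR and 2.76 to 4.11 in WT (log2 fold change -0.46, limma adjusted p = 0.0144), with groups that overlapped. Corneodesmosin (Cdsn), a glycoprotein of the desmosomes of the cornified layer, had 263, 299, 220 and 269 per Mb in HdR and 500, 437, 650 and 336 in WT (log2 fold change -0.84, 95% interval -1.36 to -0.32, limma adjusted p = 0.0197). Pkp4, an armadillo protein close to p120 catenin, was at 62.1 ± 2.02 in HdR and 61 ± 3.62 in WT. Dsg4, a desmoglein of hair, stayed under the filter, with 0.33 to 0.699 per Mb in HdR and 0.0673 to 0.508 in WT. The count of 5 was 3 without HdR 3, where Dsg1c (limma adjusted p = 0.0512) and Cdsn (0.0538) lost their calls. The Cdsn call was also lost without WT 1 (0.0553).

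The WT libraries were not uniform in these genes. WT 3 was the lowest WT library in 5 of the 10 members (Dsg2, Dsg3, Dsc3, Pkp1 and Dsp) and WT 4 in 4 (Dsc2, Jup, Pkp3 and Perp). WT 4 was also lowest in Dsg1a, Dsg1b, Dsc1 and Cdsn. In the summed coverage of 11 suprabasal markers, WT 3 was the highest library at 4887 per Mb and WT 4 the lowest of WT at 3555, and HdR libraries lay at 2659 to 3099.

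**Figure D5:**
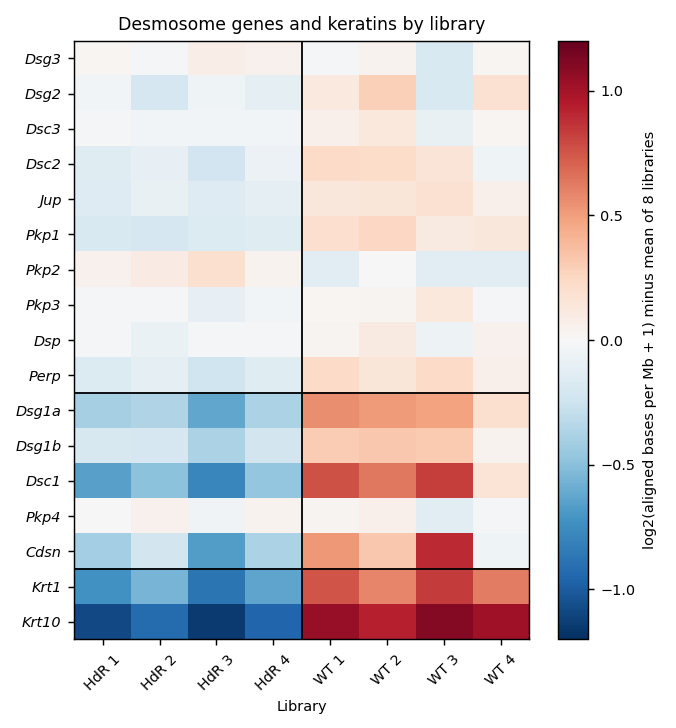
Deviation of each library from the mean of all 8 (log2 of coverage plus 1) for the 10 genes (top block), 5 further desmosome genes and the suprabasal keratins Krt1 and Krt10; blue is lower and red higher. WT 4 is the palest WT column for Dsc1, Dsg1b and Cdsn, and the 10 members vary far less than Krt1 and Krt10.

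Of 10 keratin genes of the filaments that desmoplakin anchors, 6 were lower, 1 higher and 3 (Krt14, Krt15 and Krt6a) not called (median log2 fold change -0.18). The suprabasal keratin genes fell most, Krt10 to 49.4 ± 3.67 per Mb in HdR against 208 ± 10 in WT (SD, n = 4 each; limma adjusted p = 3.37e-14) and Krt1 to 86.1 ± 8.15 against 228 ± 19.3 in WT (limma adjusted p = 2.3e-07). Krt2 was at 1.54 ± 0.232 in HdR and 2.77 ± 0.616 in WT, and Krt6b, whose reads may be shared with its near copy Krt6a, at 4403 ± 327 in HdR and 6163 ± 668 in WT (limma adjusted p 0.00279 and 0.00282). Krt16 and Krt17, keratin genes of activated and wounded epidermis, were also lower, by smaller log2 fold changes of -0.24 and -0.13 (limma adjusted p 0.0176 and 0.00713). The higher one was the basal keratin gene Krt5 (log2 fold change 0.10, limma adjusted p = 0.0247), whose call was lost without HdR 1, HdR 3, HdR 4 or WT 1 and with the replicate number as a block.

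Of 7 plakins and desmosome-associated genes, 1 was higher, none lower and 6 not called (median 0.06). Pnn, which encodes pinin, was at 83.4 ± 3.58 per Mb in HdR and 72 ± 1.94 in WT (SD, n = 4 each, log2 fold change 0.21, limma adjusted p = 0.000837). The cornified envelope plakins Evpl and Ppl had log2 fold changes of -0.10 and -0.08, and Dst of 0.08, none called (limma adjusted p 0.0892, 0.224 and 0.303). The lower count was 1 without WT 3 or WT 4.

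Adherens junction genes, the partner junction, went both ways: of 13, 3 were higher, 3 lower and 7 not called (median 0.01), and 5 were higher with upper-quartile scaling. The nectin genes Nectin2 (52.3 ± 3.12 per Mb in HdR and 71.3 ± 6.61 in WT) and Nectin1 (163 ± 7.14 in HdR and 191 ± 7.54 in WT) fell, with limma adjusted p of 2.83e-05 and 0.000287. Afadin (Afdn, 288 ± 7.85 in HdR and 253 ± 4.48 in WT) and α-actinin 1 (Actn1, 1258 ± 37.9 in HdR and 1096 ± 26.3 in WT) rose, with limma adjusted p of 0.000286 and 0.000133 (SD, n = 4 each).

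The 16 regulators listed include transcription factors of epidermal differentiation, a kinase, sheddases and calcium pumps. Of these, 15 were tested, 7 were lower, 2 higher and 6 not called (median -0.10). Tgm1, among the lower ones, is also counted with the suprabasal markers below. Zfp750 fell to 209 ± 8.33 per Mb in HdR against 294 ± 9.48 in WT, Ovol1 to 114 ± 3.8 against 242 ± 29.6 in WT and Grhl1, a Grainyhead factor known in mice to activate a desmoglein 1 gene, to 152 ± 6.93 against 200 ± 17.4 in WT (SD, n = 4 each; limma adjusted p 2.79e-08, 5.84e-06 and 5.49e-05). Prkca, the protein kinase C gene linked to the calcium dependence of desmosomes, rose to 22.1 ± 0.993 in HdR against 17.2 ± 1.82 in WT (limma adjusted p = 0.000997). Trp63, which encodes p63, was at 0.12 on the log2 scale and was not called (limma adjusted p = 0.107).

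Of 8 proteases and inhibitors that act on desmosomes or the cornified layer, 2 were higher, 2 lower and 4 not called (median -0.21). The kallikrein genes Klk5 (13.6 ± 1.56 per Mb in HdR and 34.9 ± 12.5 in WT) and Klk7 (122 ± 15.7 in HdR and 258 ± 89.7 in WT) fell, with limma adjusted p of 0.0097 and 0.0201. St14 (matriptase, 264 ± 9.3 in HdR and 220 ± 10.8 in WT) and the low Mmp9 (4.17 ± 0.323 in HdR and 1.47 ± 0.374 in WT) rose, with limma adjusted p of 4.64e-05 and 2.58e-06 (SD, n = 4 each). The lower count was 1 without HdR 1, HdR 3 or WT 1.

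Markers of cell states and other cells moved beside these results. Of 11 tested suprabasal markers, which include Krt1 and Krt10, 9 were lower and none higher in HdR, with sums of 2659 to 3099 per Mb in HdR and 3555 to 4887 in WT. Of 7 tested melanocyte markers 6 were lower, led by Dct and Pmel, with sums of 27.1 to 29.5 per Mb in HdR and 51.9 to 59.9 in WT. Of 7 keratinocyte markers 3 were higher and 1 lower, with sums of 42546 to 43365 in HdR and 39591 to 43797 in WT, and Itgb4 and Epcam had the smallest p. Of 5 tested sebocyte markers 3 were higher and 1 lower, Plin2 and Mgst1 first. The sums were 1159 to 1239 in HdR and 856 to 949 in WT, mostly Fasn. The sebocyte markers Awat2 (mean 0.397 in HdR and 0.464 in WT) and Pparg (0.0298 in HdR and 0.0703 in WT) stayed under the filter. Of 4 tested hair follicle markers 1, Krt75, was lower, with sums of 176 to 198 in HdR and 181 to 218 in WT. Fibroblast markers summed to 2.87 to 10.4 in HdR, with HdR 2 the highest, and 2.48 to 3.86 in WT. Vim was the largest part in each library. Immune markers summed to 0.469 to 1.05 in HdR and 0.397 to 0.709 in WT, with 3 of 7 at 0 in all libraries. Of 6 endothelial and muscle markers only Acta2 passed the filter, and it was higher (286 ± 8.51 in HdR and 259 ± 6.62 in WT, SD, n = 4 each). The part of these cell states in the desmosome values was not tested.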

How the data were processed

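RNA from 8 keratinocyte cultures, 4 HdR and 4 WT, was sequenced as NEBNext Ultra II libraries, per the labels' protocols, with alignment to build GRCm38 per the submitters' processing notes. The aligner, counter and annotation are not given in the sources used here. The authors deposited 1 table whose values are signal (coverage): whole-number sums of aligned bases per gene, not scaled for depth or length. The unit was read from the values, whose commonest non-zero ones are 302, 604 and 906, as if a read pair added 2 reads of 151 bases. Only 16.9% of the low non-zero values were whole multiples of 302, so the unit and read length remain inferred. These are not counts, so the main fit used no count model and no counting interval is given. The limma-voom and thinning alternatives treated coverage divided by 302 as if it were counts of read pairs.

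Each library was scaled by trimmed-mean (TMM) factors (30% of log ratios and 5% of levels trimmed at each end) to aligned bases per Mb. Limma 3.58.1 (R 4.3.3, statmod 1.5.0; trend, robust) was fitted to log2(value + 1) for the 11870 genes with a mean of at least 1, with genotype as the only factor, HdR minus WT, two-sided, Benjamini-Hochberg adjusted over all of them. The calculation was tested on simulated data built from counts in which few genes changed. Its error rate with as many calls as here was not checked. Exon lengths and positions came from GENCODE vM21 (GRCm38). Figures used Python 3.11.15 and matplotlib 3.10.9.

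The members and lists were chosen with earlier results of these data known. The text names all members and remaining desmosome genes, up to 4 genes with the smallest p from each pathway list, and up to 2 from each marker list. Trp63, Tgm1, Krt5, Krt16, Krt17, the keratins not called, Fasn, Awat2 and Pparg were named outside this rule, after their values were seen. Alternatives were other scalings, filters, pseudocounts of 0.1 and 5, limma-voom, the replicate number as a block, thinning, a fold threshold, and left-out libraries.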

Additional observations from a re-analysis of the deposited data

Results flagged for a closer look

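Across 46 groups of 4 libraries checked for a library standing apart, 4 held a library whose gap to its neighbour took nearly the whole range of the group (Dixon's 95% criterion), where chance gives about 1 in 20. Dsp was low in HdR 2 at 5845 per Mb, against 6105 to 6111 in the other HdR libraries. Dsg1a was low in HdR 3 at 119 per Mb. Pkp2 was high in WT 2 at 7.57 per Mb. Dsg1b was low in WT 4 at 304 per Mb.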

How the results depend on the processing

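The 4 lower calls (Jup, Pkp1, Perp and Dsc2) held in all 19 alternative fits against a fold of 1. Against a fold of 1.2, 343 genes were called higher and 544 lower over all genes, and 0 members lower. With upper-quartile scaling 57.7% of all calls were higher, against 47.1%, and with upper-quartile scaling, library totals and thinning 1 member, Pkp2, was called higher (log2 0.23, 0.22 and 0.30). Dsg2 was called lower with limma-voom (-0.21) and thinning (-0.22). With a library left out, members called lower ran from 4 to 7; Dsg2 ran from -0.29 to -0.14, Dsg3 from 0.017 to 0.093, Dsc3 from -0.103 to -0.029, Pkp3 from -0.107 to -0.057 and Dsp from -0.097 to -0.041. The remaining desmosome genes called lower ran from 3 to 5, plakins lower from 0 to 1, keratins higher from 0 to 1 and proteases lower from 1 to 3. Plakins lower was 1 with limma-voom and with WT 4 and HdR 4 left out together, adherens junction genes higher 5 with upper-quartile scaling, and proteases higher 1 with the stricter filter. Among the pairs, Dsg2 to Dsg3 ran from -0.32 to -0.23, Dsc2 to Dsc3 from -0.28 to -0.17, Pkp2 to Pkp1 from 0.53 to 0.59, Pkp3 to Pkp1 from 0.23 to 0.31 and Jup to Dsp from -0.23 to -0.15. The causes were not tested.

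Whether same-numbered libraries were prepared together is not given in the sources used here. Their deviations from the group means correlated at 0.03, -0.07, -0.22 and 0.02 across genes. Libraries of different number reached 0.248 (HdR 2 with WT 3), so these correlations cannot decide whether the numbers mark pairs. With the replicate number as a block, 4 members were called lower and 0 higher, keratins higher were 0, regulators higher 1 and proteases lower 1, and Cdsn lost its call (limma adjusted p = 0.0891). Paired by number, the 4 pair differences called could not pass, since the smallest exact sign-flip p is 0.125. Depth was lower in every HdR library, so depth and genotype cannot be told apart; thinning kept the 4 calls.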
